A study of Mus musculus with 10 samples.

Results

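Phosphoinositide kinases, phosphoinositide phosphatases and phospholipases C are described here in livers of mice in which Mboat7 had been knocked down. The set is a fixed list of 54 gene symbols, and all 54 were rows of the deposited table of 24411 genes. Liver homogenates came from male C57BL/6 mice (C57Bl6/J in the labels) that were 8 weeks old at the start and, per the design text and the methods, ate a high-fat diet. The 5 livers of the Mboat7 ASO group (replicates 6 to 10) came from mice that received an antisense oligonucleotide (ASO) against murine Mboat7, and the 5 of the Control ASO group (replicates 1 to 5) from mice that received a non-targeting ASO, each at 12.5 mg/kg for 20 weeks. ASOs are short modified nucleic acids that lead to cleavage of the matching RNA. By the labels, the Mboat7 ASO tissue was severe fatty liver and the Control ASO tissue normal liver. More than 1 Mboat7 ASO was used in the study, and the labels leave out which was given here. An ASO given systemically also reaches tissues other than liver, so the knockdown is not particular to hepatocytes.

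Phosphatidylinositol is a membrane phospholipid whose inositol ring can be phosphorylated at the 3, 4 and 5 positions, and the resulting phosphoinositides mark membranes and recruit signalling proteins. Class I PI 3-kinases make PI(3,4,5)P3 behind receptors for insulin, growth factors, chemokines and antigens, while lipid phosphatases take single phosphates off again, and phospholipases C cleave PI(4,5)P2 into inositol trisphosphate and diacylglycerol. MBOAT7 supplies the starting lipid of this pathway with arachidonic acid, by acylating lysophosphatidylinositol. In liver, hepatocytes use the insulin branch with the alpha isoform of class I PI 3-kinase, whereas the delta and gamma isoforms, SHIP1, phospholipase C beta 2 and phospholipase C gamma 2 are best known from blood cells.

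Promoters are shown for 4 members of the blood cell branch of the pathway, all of them higher in Mboat7 ASO livers. Inpp5d, Pik3cg and Plcb2 were chosen because they hold a match to a motif searched, and Pik3r5 because it had the highest fold change. RefSeq (GRCm38.p6, the assembly mm10) gave 48 of the 54 members at least 1 promoter of 300 bases, from 250 bases before the gene's start to 50 after it. No entry was matched for Pip4k2b, Pik3c3, Mtmr3, Pik3r6, Pip5k1b and Mtmr4. Each promoter was searched on both strands for GAGGAAGT (reverse complement ACTTCCTC), a sequence of the kind bound by the myeloid factor PU.1, and for CCGGAAGT (reverse complement ACTTCCGG), a general ETS-family sequence. The 2 motifs share the letters GGAAGT, so they are not independent. Matches are in capitals below, and each line reads 5′ to 3′ on the strand of the gene.
Inpp5d, chr1:87620062-87620361, plus strand: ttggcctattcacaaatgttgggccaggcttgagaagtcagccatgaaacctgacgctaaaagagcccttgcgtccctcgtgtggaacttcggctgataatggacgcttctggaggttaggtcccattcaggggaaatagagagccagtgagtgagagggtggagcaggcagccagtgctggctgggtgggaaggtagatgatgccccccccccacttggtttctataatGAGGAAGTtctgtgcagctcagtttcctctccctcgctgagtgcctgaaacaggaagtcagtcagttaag
Pik3cg, chr12:32208610-32208909, minus strand: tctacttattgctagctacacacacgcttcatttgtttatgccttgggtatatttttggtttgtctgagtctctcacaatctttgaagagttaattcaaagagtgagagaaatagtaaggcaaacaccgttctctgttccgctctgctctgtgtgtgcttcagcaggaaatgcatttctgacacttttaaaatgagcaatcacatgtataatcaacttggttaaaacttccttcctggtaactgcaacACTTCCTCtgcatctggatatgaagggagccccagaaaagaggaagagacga
Plcb2, chr2:118728389-118728688, minus strand: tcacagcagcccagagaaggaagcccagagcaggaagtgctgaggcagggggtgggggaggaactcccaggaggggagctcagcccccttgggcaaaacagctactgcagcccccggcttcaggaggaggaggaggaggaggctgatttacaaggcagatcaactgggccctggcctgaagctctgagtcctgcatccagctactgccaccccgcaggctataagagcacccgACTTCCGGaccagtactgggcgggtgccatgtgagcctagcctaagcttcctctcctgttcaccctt
Pik3r5, chr11:68431875-68432174, plus strand: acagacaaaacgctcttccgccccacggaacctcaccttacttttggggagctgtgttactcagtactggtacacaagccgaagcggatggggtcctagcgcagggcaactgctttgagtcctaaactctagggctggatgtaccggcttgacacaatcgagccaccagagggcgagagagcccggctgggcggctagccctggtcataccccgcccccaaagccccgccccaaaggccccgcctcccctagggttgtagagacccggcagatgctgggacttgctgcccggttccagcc
Some genes have more than 1 promoter in the table, and the 48 members had 69. GAGGAAGT stood in 4 of these 69 promoters (2 of Pik3cg, which overlap and share the match, and 1 each of Inpp5d and Plcd1) and in 3.20% of the 32851 promoters of the table. CCGGAAGT stood in 2 of the 69, those of Pik3ca and Plcb2, and in 3.89% of all promoters. Pik3r5 had neither sequence in this window. These matches describe letters in a window and were not tested as binding sites.

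Mboat7 itself had 92, 101, 130, 88 and 60 counts in Mboat7 ASO replicates 6 to 10, against 1105, 1053, 1016, 1069 and 951 counts in Control ASO replicates 1 to 5 (log2 fold change -3.63 ± 0.17 SE, n = 5 per group, edgeR FDR 1.29e-06). Library totals ran between 26232977 and 28791798 counts in the Mboat7 ASO group and between 25153235 and 27912213 in the Control ASO group, so 3 counts correspond to 0.104 to 0.119 CPM (counts scaled to a common library size). Levels below are CPM with library sizes adjusted by upper quartile. Markers of other liver cell types moved with the groups. The 12 pan-leukocyte markers (Ptprc, Cd53 and others) summed to 491.1, 380.6, 395.7, 186.7 and 215.4 CPM in Mboat7 ASO replicates 6 to 10, against 119.5, 196.6, 127.3, 144.9 and 131.4 CPM in Control ASO replicates 1 to 5, and 12 of 12 rose. Lcp1 rose 1.37-fold and the other 11 by 2.09- to 5.89-fold, and Lcp1 made up 37.6% of the sum in Mboat7 ASO and 60.2% in Control ASO livers (means over 5 livers each). The sum in Mboat7 ASO replicate 9 lay below that in Control ASO replicate 2. Kupffer cell markers (6 of 8 rose) summed to 220.6 to 713.5 CPM in Mboat7 ASO and 128.6 to 279.3 CPM in Control ASO. The uncalled Timd4 had 0.973, 5.06, 5.55, 0.917 and 1.09 CPM in Mboat7 ASO replicates 6 to 10, against 1.22 to 3.06 CPM in Control ASO. Marco, also uncalled, had 4.83, 34.2, 43.8, 3.67 and 2.80 CPM there, against 3.08 to 11.2 CPM in Control ASO. Neutrophil markers (6 of the 6 tested rose) summed to 2.60 to 44.7 CPM in Mboat7 ASO and 0.418 to 1.79 CPM in Control ASO. Each of these 6 entered the test through Mboat7 ASO livers alone, the group where it was higher. Stellate cell markers (6 of 7 rose) summed to 277.4 to 418.8 CPM in Mboat7 ASO and 140.8 to 254.8 CPM in Control ASO. Sinusoidal endothelial markers (5 of 6 rose) summed to 153.1 to 211.7 CPM in Mboat7 ASO and 97.4 to 138.9 CPM in Control ASO. Among the markers tested, 1 of 2 B cell, 0 of 3 T cell and 1 of 5 cholangiocyte markers (Spp1) rose. The B cell marker that rose, Cd79b, also entered the test through Mboat7 ASO livers alone. Of the 7 hepatocyte markers in the table, 6 were abundant in every library, while Ass1 had 0 to 0.215 CPM in Mboat7 ASO and 0.114 to 0.397 CPM in Control ASO and did not pass the filter. Why so few Ass1 reads were counted was not tested, so these values are not read as its level in liver. Together the 7, most of it Alb, summed to 79540 to 118300 CPM in Mboat7 ASO, below the 121100 to 136400 CPM of Control ASO, with 3 of 6 tested lower (Alb, Ttr and Apoa1) and 1 higher (Apob). No listed marker in the table was at 0 in every library. Over all genes tested, 21.2% rose and 17.3% fell.

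Phosphoinositide enzyme transcripts were more often higher than lower after Mboat7 knockdown. Of the 54 members, 51 passed the filter of 1 CPM in at least 1 library, and of these 21 rose, 2 fell and 28 were not called at an edgeR quasi-likelihood false discovery rate (FDR) of 0.05, adjusted over the 12609 genes tested. The members that rose were 41.2% of the members tested, against 21.2% of all genes tested. The members that fell were 3.92%, against 17.3% of all genes. More than 2-fold rises were seen for 7 members (13.7%), against 6.43% of all genes, and 0 members fell by more than 2-fold, against 0.666%. The 5 Mboat7 ASO values lay above the 5 Control ASO values without overlap for 13 members (25.5%, against 10.5% of all genes), and below them for 2 (3.92%, against 10.7%). The median log2 fold change was 0.17 over the members and 0.01 over all genes, and 42 of the 51 were positive. The 54 transcripts together summed to 1478 to 1518 CPM in Mboat7 ASO livers and 1295 to 1405 CPM in Control ASO livers. Scaling by library size alone moved the median of all genes up by 0.16 on the log2 scale. Under it 35 members rose and 0 fell, against 37.0% and 6.12% of all genes. The directions given here are thus relative to the upper quartile. Pik3r6, Plcb4 and Inpp4b passed the filter through Mboat7 ASO livers alone (highest Control ASO values 0.859, 0.945 and 0.601 CPM). They thus entered these counts through the group where they were higher. With no filter all 54 members were tested, and 20 rose and 2 fell, against 14.6% and 11.3% of the 17966 genes then tested. The counts describe the list, and no test was run over it.

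**Figure D1:**
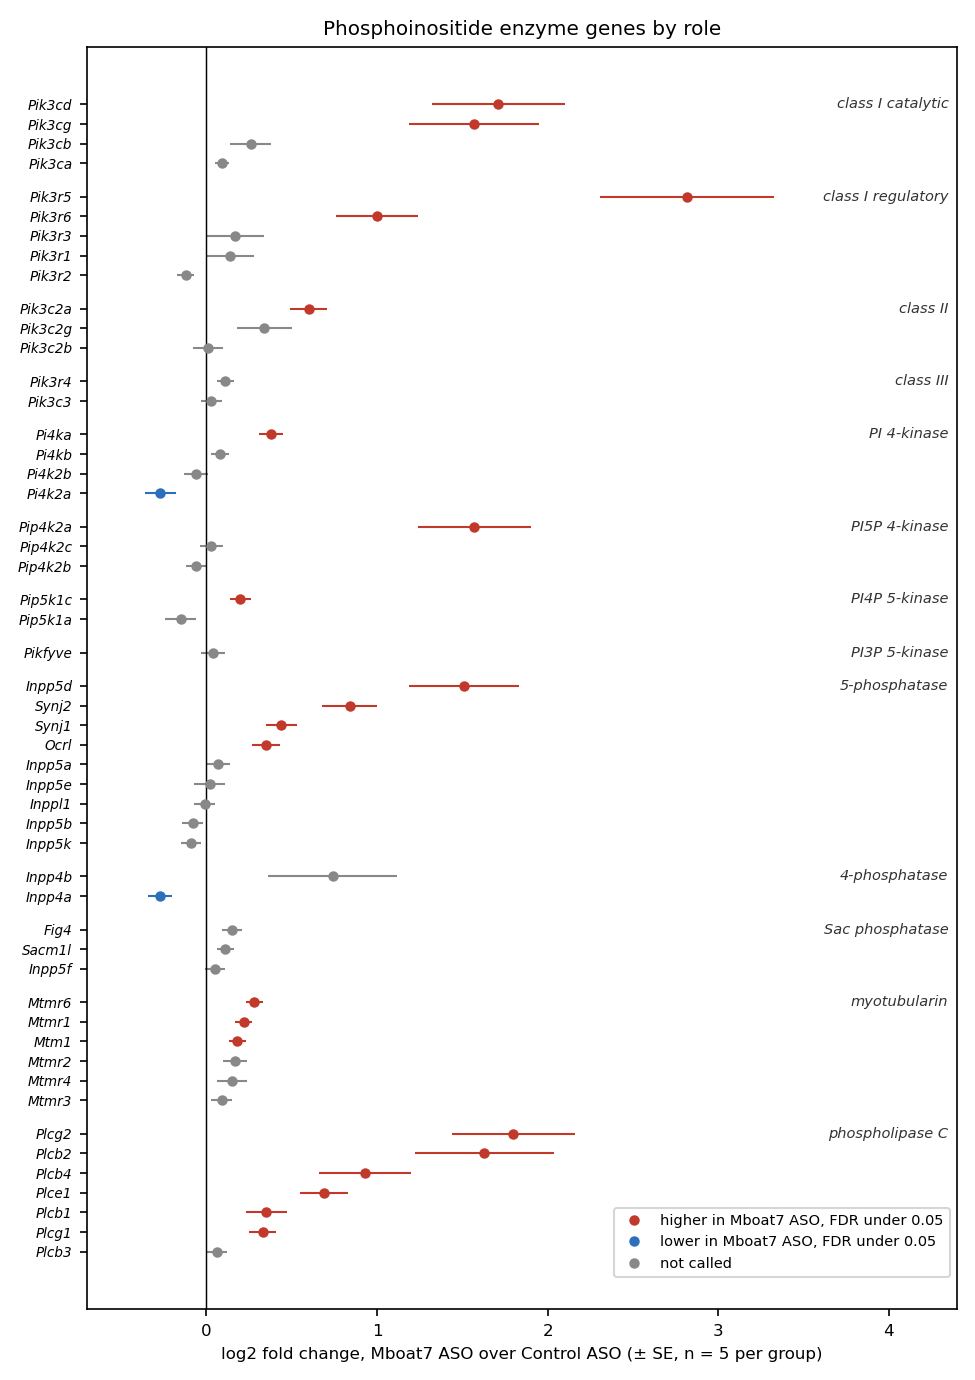
Log2 fold change of Mboat7 ASO over Control ASO (horizontal axis, points with SE bars, n = 5 per group) for the 51 members tested, grouped by enzyme role down the vertical axis and coloured by call at an FDR of 0.05. Pik3r5 at 2.82 is the farthest right, 6 leukocyte-type members and Pip4k2a lie beyond a 2-fold rise, Pik3r6 lies at 1.997-fold, and the 2 lower members, Pi4k2a and Inpp4a, both lie at -0.27.

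Class I catalytic subunits, which make PI(3,4,5)P3, divided by isoform. The delta and gamma subunits rose, and the alpha and beta subunits were not called. Pik3cd (chr4:149649168-149702571), the delta subunit used by antigen and cytokine receptors, had 17.1, 9.74, 10.96, 4.99 and 6.94 CPM in Mboat7 ASO replicates 6 to 10, against 1.84, 6.16, 1.89, 3.10 and 2.24 CPM in Control ASO replicates 1 to 5. The groups overlapped, since Control ASO replicate 2 exceeded Mboat7 ASO replicate 9. Its log2 fold change was 1.71 ± 0.39 (SE, edgeR FDR 0.0076), and ranged between 1.41 and 2.30 over 20 alternative settings. The 2.30 came from leaving out those 2 libraries, and dropping the overlapping pair was bound to raise the fold change. Pik3cg (chr12:32173473-32208659), the gamma subunit driven by G protein-coupled receptors, was rarer, with 2.70, 2.49, 1.90, 1.10 and 1.25 CPM in Mboat7 ASO and 0.535, 1.11, 0.258, 0.785 and 0.456 CPM in Control ASO livers. It rose by a log2 fold change of 1.57 ± 0.38 (edgeR FDR 0.00916), with Control ASO replicate 2 again just above Mboat7 ASO replicate 9. In bulk liver, more cells of a type and more RNA per cell cannot be told apart, and the part of the leukocyte markers in these results was not tested.

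Pik3ca (chr3:32397671-32468486), the alpha subunit that carries insulin signalling in hepatocytes, was the most abundant catalytic isoform per kilobase. It had 45.9, 46.9, 48.3, 48.8 and 46.2 CPM in Mboat7 ASO livers, against 43.6, 47.2, 41.96, 43.6 and 45.1 CPM in Control ASO livers, with overlapping groups and a log2 fold change of 0.09 ± 0.04 (edgeR FDR 0.121). Pik3cb, the beta subunit, averaged 29.03 ± 3.69 CPM in Mboat7 ASO and 24.3 ± 4.0 CPM in Control ASO (SD, n = 5 each, edgeR FDR 0.108). Per kilobase of exon, Pik3ca made up 42.7, 50.0, 46.1, 49.4 and 47.7% of the RNA of the 4 catalytic isoforms in Mboat7 ASO replicates 6 to 10, against 60.5, 56.7, 54.7, 52.8 and 52.6% in Control ASO replicates 1 to 5. That share was lower in every Mboat7 ASO liver than in any Control ASO liver, although the level of Pik3ca was not. Pik3cd took 7.33 to 23.2% (mean 14.2 ± 6.0 SD) in Mboat7 ASO livers and 3.58 to 10.7% (mean 5.45 ± 3.05 SD) in Control ASO livers, and Pik3cg took 2.02 ± 0.75% in Mboat7 ASO and 0.841 ± 0.417% in Control ASO. The share of Pik3cb was 36.6 ± 4.8% in Mboat7 ASO and 38.3 ± 5.0% in Control ASO. Shares are given without a test.

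**Figure D2:**
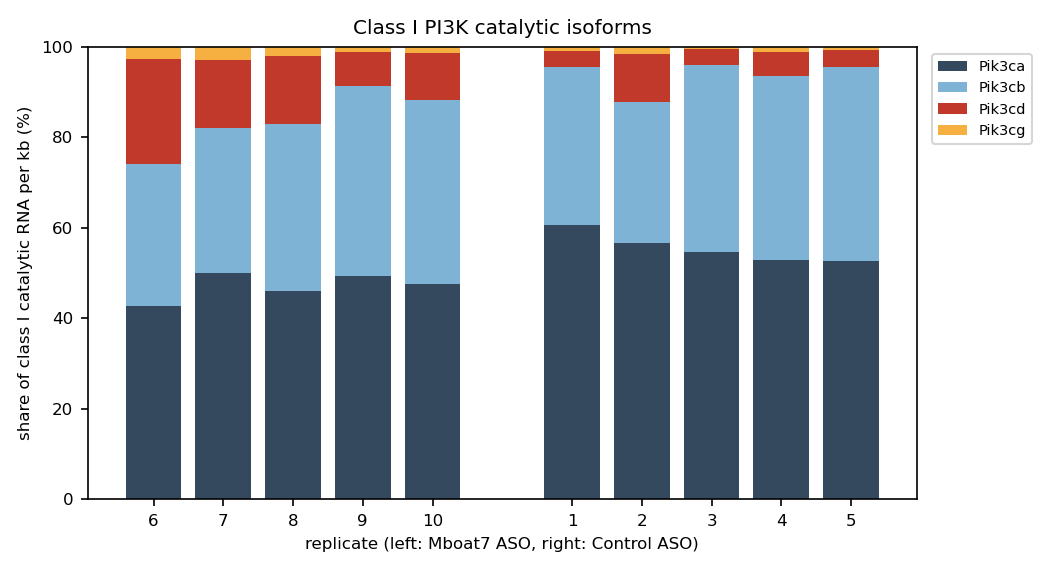
Share of each class I catalytic isoform in the summed CPM per kilobase of the 4 isoforms (vertical axis, percent), 1 bar per liver with Mboat7 ASO replicates on the left and Control ASO replicates on the right. Pik3ca fills 42.7 to 50.0% of the Mboat7 ASO bars and 52.6 to 60.5% of the Control ASO bars, and the Pik3cd segment is largest in Mboat7 ASO replicate 6 at 23.2%.

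Regulatory subunits showed the same division. Pik3r5 (chr11:68432121-68497849), the p101 adaptor that couples the gamma subunit to G protein beta-gamma, had the highest fold change of the members. It had 11.2, 8.23, 9.78, 1.58 and 3.19 CPM in Mboat7 ASO replicates 6 to 10, against 0.841, 1.71, 0.730, 0.785 and 0.722 CPM in Control ASO replicates 1 to 5, a 7.08-fold difference (log2 fold change 2.82 ± 0.51 SE, edgeR FDR 0.00337). Replicates 6, 7 and 8 were far above replicates 9 and 10, and replicate 9 lay below Control ASO replicate 2. Pik3r6 (chr11:68503019-68552698), the alternative p84 adaptor of the gamma subunit, lies 5169 bases downstream of Pik3r5 on the same strand. It had 1.70, 1.13, 1.58, 1.14 and 0.987 CPM in Mboat7 ASO livers and 0.459, 0.556, 0.859, 0.635 and 0.760 CPM in Control ASO livers, without overlap (log2 fold change 1.0 ± 0.24 SE, edgeR FDR 0.00963). Pik3r6 passed the filter only through Mboat7 ASO livers, the group where it was higher, and kept its call with no filter. Of the p85-type subunits that stabilise the alpha, beta and delta catalytic chains, Pik3r1 was the most abundant. Pik3r1 had 145, 112, 133, 149 and 141 CPM in Mboat7 ASO livers, against 103, 90.1, 119.5, 150.2 and 152 CPM in Control ASO livers, where it varied widely (log2 fold change 0.14 ± 0.14 SE, edgeR FDR 0.445). Pik3r2 (log2 fold change -0.12) and Pik3r3 (0.17) were not called either.

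Class II and class III PI 3-kinases act on endocytic and autophagic membranes. Pik3c2a (chr7:116337265-116443449), the class II alpha enzyme that makes PI(3,4)P2 during endocytosis, had the lowest FDR of the members. It had 54.7, 58.99, 56.4, 48.8 and 62.6 CPM in Mboat7 ASO replicates 6 to 10, against 34.7, 43.5, 32.7, 43.8 and 30.6 CPM in Control ASO replicates 1 to 5, without overlap (log2 fold change 0.60 ± 0.11 SE, edgeR FDR 0.00323). The beta and gamma forms, Pik3c2b (log2 fold change 0.01) and Pik3c2g (0.34), were not called. Within class II, Pik3c2b supplied 14.2 ± 1.4% of the RNA per kilobase in Mboat7 ASO livers and 20.0 ± 2.7% in Control ASO livers (SD, n = 5 each), without overlap. Class III consists of the catalytic Pik3c3, which makes PI3P for autophagy and endosomal sorting, and its partner Pik3r4. Pik3c3 had 22.1, 24.95, 22.5, 21.9 and 22.9 CPM in Mboat7 ASO and 23.6, 23.8, 21.04, 22.4 and 21.1 CPM in Control ASO livers, with overlapping groups (log2 fold change 0.03 ± 0.06 SE, edgeR FDR 0.691), and Pik3r4 had a log2 fold change of 0.11.

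PI 4-kinases make PI4P, the precursor of PI(4,5)P2, and moved in both directions. Pi4ka (chr16:17280351-17406314), the kinase of the plasma membrane pool, had 61.8, 64.1, 71.4, 67.5 and 73.7 CPM in Mboat7 ASO replicates 6 to 10, against 48.6, 53.2, 47.8, 59.4 and 51.6 CPM in Control ASO replicates 1 to 5. The groups did not overlap (log2 fold change 0.38 ± 0.07 SE, edgeR FDR 0.00377). Pi4k2a (chr19:42090470-42122087), the kinase of the trans-Golgi network and endosomes, had 70.9, 77.1, 74.1, 73.4 and 61.8 CPM in Mboat7 ASO livers and 107, 84.3, 82.5, 78.5 and 77.6 CPM in Control ASO livers. These groups did not overlap in the other direction (log2 fold change -0.27 ± 0.09 SE, edgeR FDR 0.0417). The call for Pi4k2a was lost when Mboat7 ASO replicate 6, 8, 9 or 10 or Control ASO replicate 1, 2 or 3 was left out, with log2 fold changes of -0.28 to -0.18 and FDR of 0.0511 to 0.0948, and under scaling by library size alone (FDR 0.337). Per kilobase, Pi4ka made up 15.5 ± 1.2% of the RNA of the 4 PI 4-kinases in Mboat7 ASO and 11.8 ± 1.2% in Control ASO livers, without overlap. Pi4k2a made up 27.4 ± 1.9% in Mboat7 ASO and 32.4 ± 2.9% in Control ASO livers, also without overlap (SD, n = 5 each). Pi4kb of the Golgi (log2 fold change 0.08) and Pi4k2b (-0.06) were not called.

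PI5P 4-kinases, PI4P 5-kinases and the PI3P 5-kinase Pikfyve add the next phosphate. Pip4k2a (chr2:18842255-18998126), a PI5P 4-kinase, had 17.9, 14.4, 12.4, 5.94 and 8.16 CPM in Mboat7 ASO replicates 6 to 10, against 3.29, 6.91, 2.62, 4.07 and 2.96 CPM in Control ASO replicates 1 to 5 (log2 fold change 1.57 ± 0.33 SE, edgeR FDR 0.0054). Its high and low libraries were those of Pik3cd, with replicate 6 highest, replicates 9 and 10 lowest among Mboat7 ASO livers, and Control ASO replicate 2 above replicate 9. Pip4k2c, the most abundant PI5P 4-kinase per kilobase, had 46.4, 40.8, 38.9, 42.99 and 41.9 CPM in Mboat7 ASO and 42.2, 46.2, 39.3, 37.2 and 42.5 CPM in Control ASO livers and was not called (log2 fold change 0.03 ± 0.07 SE, edgeR FDR 0.783). Pip4k2a supplied 11.9 to 27.8% of PI5P 4-kinase RNA per kilobase in Mboat7 ASO livers and 5.99 to 13.4% in Control ASO livers. Pip4k2b had a log2 fold change of -0.06 and was not called.

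Among PI4P 5-kinases, the main makers of PI(4,5)P2, Pip5k1c (chr10:81292963-81319973) had 40.4, 36.8, 37.7, 34.9 and 39.5 CPM in Mboat7 ASO livers, against 29.97, 35.2, 31.1, 35.9 and 33.1 CPM in Control ASO livers. The groups overlapped and the change was small (log2 fold change 0.20 ± 0.06 SE, edgeR FDR 0.03). The call was lost when Mboat7 ASO replicate 6, 8 or 10 or Control ASO replicate 1, 3 or 5 was left out (FDR 0.0526 to 0.0795, log2 fold change 0.16 to 0.20). Pip5k1a was not called (-0.15). Pip5k1b did not pass the filter, with 6 counts over the Mboat7 ASO group and 1 count over the Control ASO group. The ratio was 5.95 (scaled by library totals, 95% counting interval 0.722 to 273.6). Pikfyve, which makes PI(3,5)P2 on endosomes and lysosomes, had 29.7, 30.5, 27.8, 27.9 and 27.4 CPM in Mboat7 ASO and 31.04, 28.1, 27.1, 30.1 and 23.5 CPM in Control ASO livers and was not called (log2 fold change 0.04 ± 0.07 SE, edgeR FDR 0.722).

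Of the 9 inositol 5-phosphatases, 4 rose and 5 were not called, where 21.2% of all genes tested rose. Inpp5d (chr1:87620312-87720507) encodes SHIP1, which turns PI(3,4,5)P3 into PI(3,4)P2 in blood cells. It had 14.9, 10.9, 11.9, 4.99 and 7.33 CPM in Mboat7 ASO replicates 6 to 10, against 2.56, 5.76, 2.92, 3.89 and 2.39 CPM in Control ASO replicates 1 to 5 (log2 fold change 1.51 ± 0.32 SE, edgeR FDR 0.00522). Control ASO replicate 2 exceeded Mboat7 ASO replicate 9, and the other libraries separated. Inppl1, which encodes the widely expressed SHIP2, had 52.6, 47.1, 51.1, 48.7 and 49.4 CPM in Mboat7 ASO and 47.3, 53.7, 46.03, 54.5 and 49.1 CPM in Control ASO livers and was not called (log2 fold change -0.01 ± 0.06 SE, edgeR FDR 0.9). Inpp5d thus formed 14.2 ± 4.6% of the RNA per kilobase of these SHIP genes in Mboat7 ASO livers and 5.46 ± 1.71% in Control ASO livers (SD, n = 5 each).

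The synaptojanins, which strip PI(4,5)P2 from endocytic vesicles, also rose, with no overlap between the groups. Synj2 (chr17:5941280-6044290) had 26.7, 17.4, 22.3, 23 and 24.8 CPM in Mboat7 ASO livers, against 14.7, 16.8, 9.15, 10.5 and 12.6 CPM in Control ASO livers (log2 fold change 0.84 ± 0.16 SE, edgeR FDR 0.00404). Synj1 (chr16:90936092-91011308) had 19.2, 17.4, 16.9, 14.4 and 16.7 CPM in Mboat7 ASO livers, against 10.97, 13.6, 10.9, 13.3 and 13.3 CPM in Control ASO livers (log2 fold change 0.44 ± 0.09 SE, edgeR FDR 0.00569). Ocrl (chrX:47912387-47965868), the endosomal 5-phosphatase mutated in Lowe syndrome in humans, had 10.6, 10.9, 9.71, 10.5 and 9.18 CPM in Mboat7 ASO and 7.61, 9.14, 7.34, 8.11 and 7.79 CPM in Control ASO livers, without overlap (log2 fold change 0.35 ± 0.08 SE, edgeR FDR 0.00885). Inpp5b, its nearest relative and the most abundant 5-phosphatase per kilobase, was not called, with 51.8, 50.04, 57.8, 51.4 and 55.8 CPM in Mboat7 ASO and 52.6, 55.9, 55.4, 57.7 and 59.8 CPM in Control ASO livers (log2 fold change -0.08 ± 0.06 SE, edgeR FDR 0.285). Inpp5a, which acts on soluble inositol trisphosphate (0.07), Inpp5e of the primary cilium (0.02) and Inpp5k (-0.09) were not called, the values being log2 fold changes. Exons of Inpp5e share 20.3% of their bases with Pmpca on the opposite strand, so its counts are uncertain.

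The 4-phosphatases take PI(3,4)P2 to PI3P. Inpp4a (chr1:37299865-37410736) had 28.02, 29.4, 24.8, 27.9 and 25.6 CPM in Mboat7 ASO replicates 6 to 10, against 37.2, 33.1, 32.7, 30.3 and 29.98 CPM in Control ASO replicates 1 to 5. Each Mboat7 ASO value was below each Control ASO value (log2 fold change -0.27 ± 0.07 SE, edgeR FDR 0.0134), and the call was lost under scaling by library size alone (-0.11, FDR 0.22). Inpp4b was low, with 0.721 ± 0.357 CPM in Mboat7 ASO and 0.434 ± 0.133 CPM in Control ASO livers (SD, n = 5 each). It had a log2 fold change of 0.74 ± 0.38 SE and was not called (edgeR FDR 0.148). Inpp4b passed the filter through Mboat7 ASO replicate 6 alone.

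Sac-domain phosphatases were not called, although Sacm1l and Fig4 were called higher with the gene-length trend removed and under scaling by library size alone. Sacm1l, the PI4P phosphatase of the endoplasmic reticulum, was the most abundant of the 54 members per kilobase (22.5 CPM per kb in Mboat7 ASO and 20.9 in Control ASO). It had 77.2, 81.7, 85.9, 91.2 and 84.8 CPM in Mboat7 ASO livers and 78.4, 76.1, 80.8, 78.8 and 75.99 CPM in Control ASO livers (log2 fold change 0.11 ± 0.05 SE, edgeR FDR 0.113). Of its exonic bases, 48.2% are shared with Slc6a20b on the opposite strand, which makes its level uncertain. Fig4, which works in a complex with Pikfyve, lay above Control ASO in every Mboat7 ASO liver but missed the threshold (log2 fold change 0.15 ± 0.06 SE, edgeR FDR 0.063), and Inpp5f had a log2 fold change of 0.05.

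Myotubularins remove the 3-phosphate from PI3P and PI(3,5)P2. Of 6 members, 3 rose by small amounts with no overlap between groups, and all 6 log2 fold changes were positive (Mtm1 turned to -0.04 with the gene-length trend removed). Over all genes tested, 21.2% rose, 10.5% were higher without overlap, and 6464 of 12609 log2 fold changes were positive. Mtmr6 (chr14:60265228-60302370) had 36.3, 37.3, 35.6, 32.1 and 36.4 CPM in Mboat7 ASO livers, against 28.2, 30.8, 28.1, 30.3 and 29.4 CPM in Control ASO livers (log2 fold change 0.28 ± 0.05 SE, edgeR FDR 0.00367). The neighbouring X-linked genes Mtmr1 (0.22 ± 0.05 SE, edgeR FDR 0.0105) and Mtm1 (0.18 ± 0.05 SE, edgeR FDR 0.0149), the gene of X-linked myotubular myopathy in humans, rose as well. Mtm1 was the least variable of the called members among Mboat7 ASO livers, with 18.9, 19.02, 19.5, 18.9 and 19.1 CPM in Mboat7 ASO and 17.3, 16.1, 16.1, 16.96 and 17.7 CPM in Control ASO livers. Mtmr4, the most abundant myotubularin per kilobase, had 53.5, 67.9, 68, 72.3 and 64.9 CPM in Mboat7 ASO and 63.7, 50.9, 54.6, 60.2 and 64.6 CPM in Control ASO livers and was not called (log2 fold change 0.15 ± 0.09 SE, edgeR FDR 0.201). Mtmr2 (0.17) and Mtmr3 (0.09), given as log2 fold changes, were not called.

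Phospholipases C were the role with the largest share of calls, 6 of the 7 tested, all higher, where 21.2% of all genes tested rose. Among these, Plcb2 and Plcg2 are best known from blood cells. The call was lost under 11 of 20 alternative settings for Plcb1 and under 1 for Plcg1. Plcg2 (chr8:117498291-117635142), the gamma 2 enzyme that acts behind B cell and Fc receptors, had 7.66, 5.59, 6.45, 2.90 and 2.73 CPM in Mboat7 ASO replicates 6 to 10, against 0.956, 2.503, 0.902, 1.31 and 1.60 CPM in Control ASO replicates 1 to 5. The groups did not overlap, and replicates 9 and 10 were closest to Control ASO replicate 2 (log2 fold change 1.80 ± 0.36 SE, edgeR FDR 0.00449). Plcb2 (chr2:118707517-118728438), activated by G protein beta-gamma in blood cells, had 5.81, 3.93, 4.59, 1.25 and 3.19 CPM in Mboat7 ASO and 0.497, 1.95, 0.988, 1.35 and 1.29 CPM in Control ASO livers (log2 fold change 1.63 ± 0.41 SE, edgeR FDR 0.0105). Mboat7 ASO replicate 9 lay within the Control ASO range. Plcg1 (chr2:160731300-160775760), the gamma 1 enzyme behind growth factor receptors and the most abundant member of the role per kilobase, had 41.4, 39.2, 48.7, 48.7 and 45.7 CPM in Mboat7 ASO livers, against 34.4, 32.6, 34.8, 33.8 and 41.8 CPM in Control ASO livers. Control ASO replicate 5 stood above the other controls and overlapped Mboat7 ASO (log2 fold change 0.33 ± 0.08 SE, edgeR FDR 0.0104).

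Plce1 (chr19:38481109-38785030), which is activated by Ras-family GTPases, had 21.5, 27.4, 25.6, 18.5 and 23.98 CPM in Mboat7 ASO livers, against 11.2, 17.6, 12.5, 16.3 and 14.9 CPM in Control ASO livers, without overlap (log2 fold change 0.69 ± 0.14 SE, edgeR FDR 0.00445). Plcb4, another beta-type enzyme, was low, with 1.17 ± 0.14 CPM in Mboat7 ASO and 0.619 ± 0.233 CPM in Control ASO (SD, n = 5 each), and rose without overlap (log2 fold change 0.93 ± 0.27 SE, edgeR FDR 0.0197). Plcb4 passed the filter only through Mboat7 ASO livers, and kept its call with no filter. Plcb1, coupled to Gq, rose by 0.35 ± 0.12 (SE, edgeR FDR 0.0416) with overlapping groups. Its call was lost when Mboat7 ASO replicate 7, 8, 9 or 10 or Control ASO replicate 1, 4 or 5 was left out (FDR 0.0604 to 0.093, log2 fold change 0.29 to 0.36), with TMM scaling (FDR 0.0506) and with no filter (FDR 0.0536). Plcb3, the most abundant beta enzyme per kilobase, was not called (log2 fold change 0.06), while its share of beta-type RNA per kilobase was 60.2 ± 2.7% in Mboat7 ASO and 68.8 ± 3.6% in Control ASO livers, without overlap. Plcg2 formed 17.0 ± 6.9% of gamma-type RNA in Mboat7 ASO and 6.96 ± 3.14% in Control ASO livers. The delta enzymes did not pass the filter. Plcd1 had 78 counts over the Mboat7 ASO group and 52 over the Control ASO group (ratio 1.49, 95% counting interval 1.03 to 2.16), and Plcd3 had 68 over the Mboat7 ASO group and 77 over the Control ASO group (ratio 0.876, 0.622 to 1.23). These ratios and intervals use library totals in place of the upper quartile, and the intervals cover counting error alone. By upper quartile, Plcd1 averaged 0.538 CPM in Mboat7 ASO and 0.411 CPM in Control ASO livers. Plcd3 averaged 0.467 CPM in Mboat7 ASO and 0.596 CPM in Control ASO livers. No interval was computed on that scale.

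**Figure D3:**
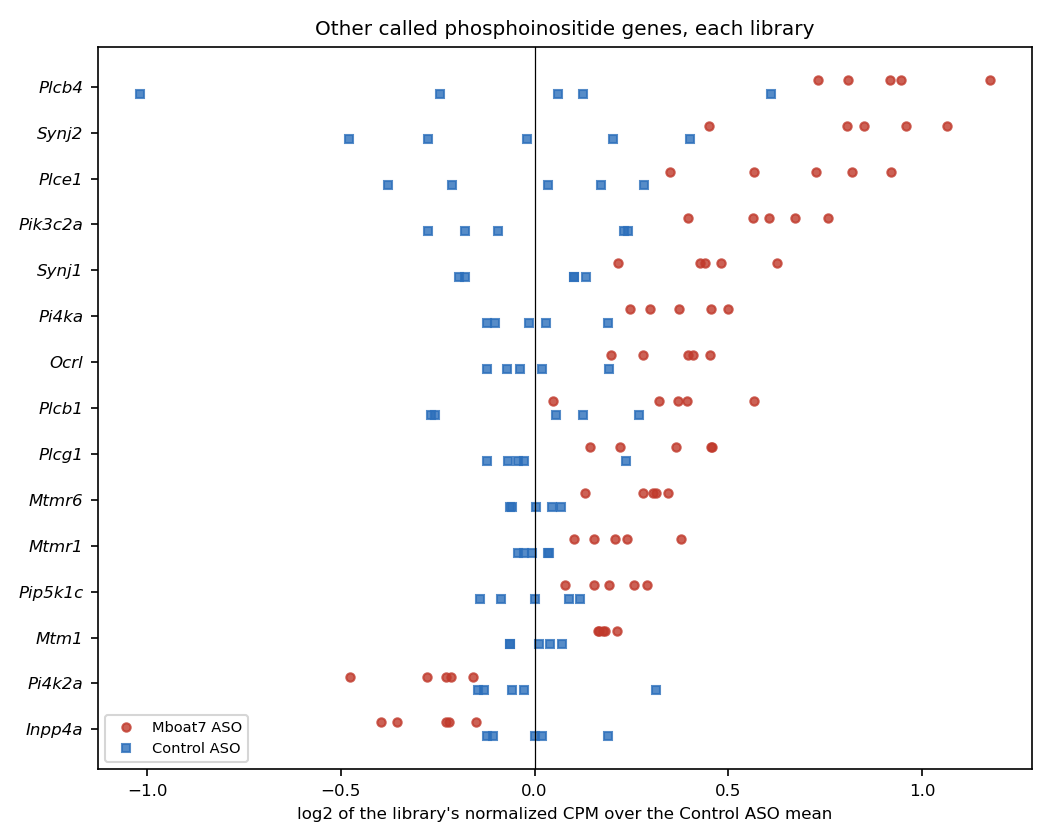
Log2 of each liver's normalized CPM over the Control ASO mean (horizontal axis) for the 15 called members outside the leukocyte type and Pip4k2a, with circles for Mboat7 ASO and squares for Control ASO (n = 5 each). Circles lie right of the squares for 10 of the 13 higher members, overlap them for Plcb1, Plcg1 and Pip5k1c, and lie left of them for Pi4k2a and Inpp4a.

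The members that rose divided into a leukocyte-type set with wide spread between livers and a broader set with smaller and more even rises. The leukocyte-type set holds Pik3cd, Pik3cg, Pik3r5, Pik3r6, Inpp5d, Plcb2 and Plcg2. It was named from textbook knowledge, but with earlier results of these data known. Pik3r6 also passed the filter through Mboat7 ASO livers alone. The counts for the set are therefore descriptive and test nothing. All 7 rose, with log2 fold changes of 1.0 to 2.82 and a median of 1.63, and each kept its call under each of the 20 alternatives tried. Mboat7 ASO replicate 6 was highest for 7 of 7, against 28.3% of all genes tested. Replicates 9 and 10 both lay below replicates 6, 7 and 8 for 6 of 7 (85.7%), against 15.5% of all genes, Pik3r6 being the exception. Replicate 9 was lowest among Mboat7 ASO livers for 5 of 7, and Control ASO replicate 2 highest among controls for 6 of 7, against 24.3% and 29.6% of all genes. The summed pan-leukocyte markers had this order of libraries too. The median coefficient of variation of the 7 was 43.1% in Mboat7 ASO and 44.2% in Control ASO livers.

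**Figure D4:**
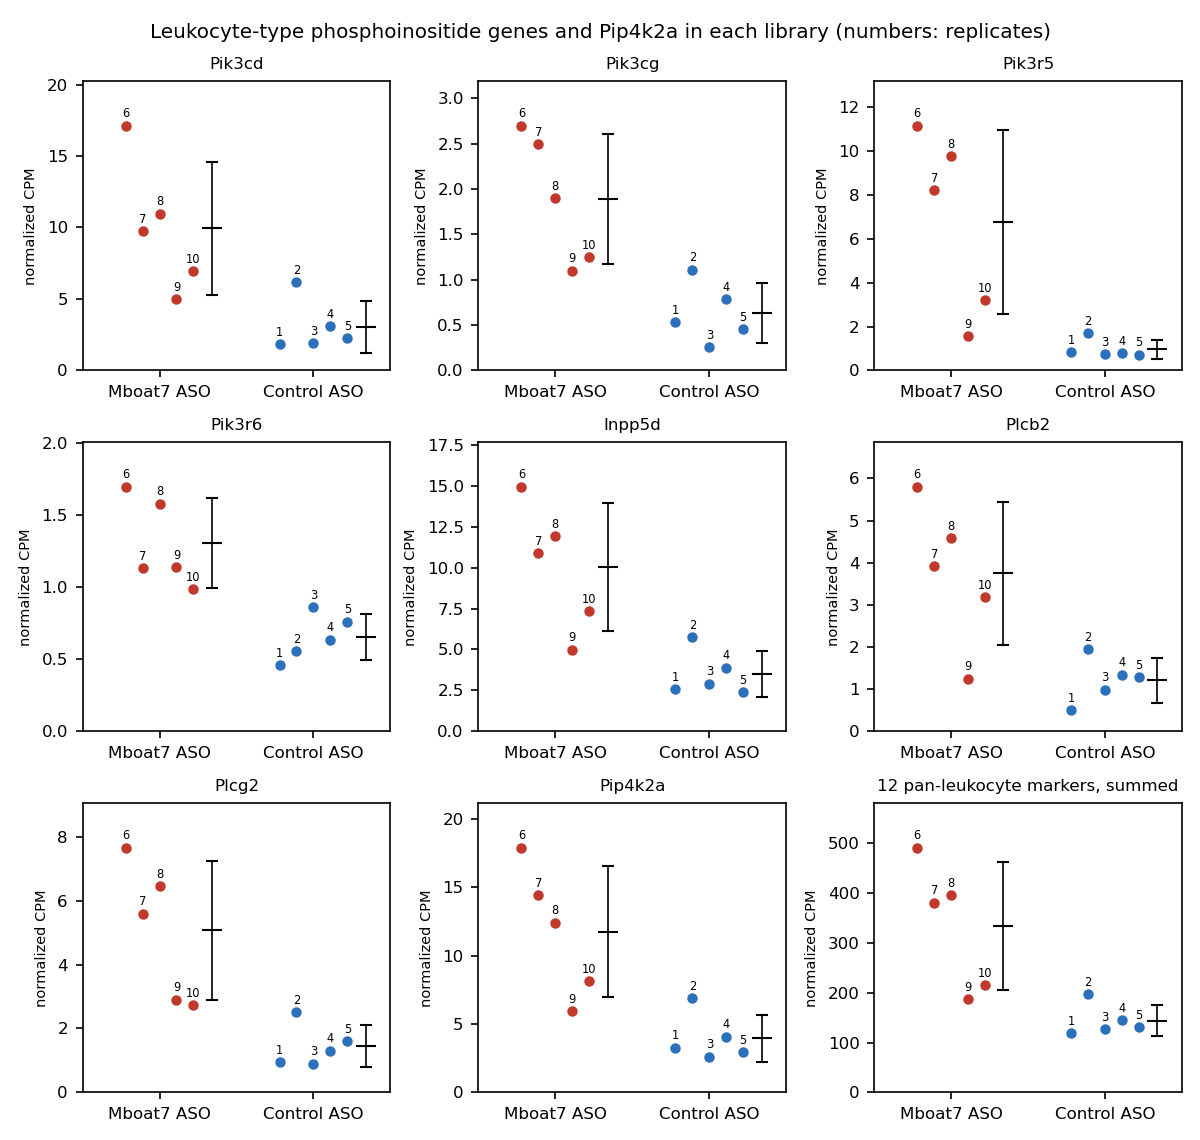
Normalized CPM in each liver (vertical axis, points numbered by replicate, bars mean and SD, n = 5 per group) for the 7 leukocyte-type members, Pip4k2a and the sum of the 12 pan-leukocyte markers, Mboat7 ASO left of Control ASO in each panel. Replicates 9 and 10 lie below replicates 6 to 8 in the marker panel and for each gene shown other than Pik3r6, and Control ASO replicate 2 is the highest control for each gene other than Pik3r6.

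Ratios of the leukocyte-type members and Pip4k2a to those markers depended for 6 of the 8 on 1 marker, Lcp1. Per 100 CPM of the 12 summed pan-leukocyte markers, Pik3cd had 2.94 ± 0.40 CPM in Mboat7 ASO and 2.0 ± 0.68 CPM in Control ASO livers, and Inpp5d had 2.998 ± 0.271 CPM in Mboat7 ASO and 2.37 ± 0.44 CPM in Control ASO livers (SD, n = 5 each). With Lcp1 left out of the sum, a choice made after seeing the data, Pik3cd had 4.77 ± 0.76 CPM in Mboat7 ASO and 4.94 ± 0.74 CPM in Control ASO, and Inpp5d 4.88 ± 0.77 CPM in Mboat7 ASO and 5.99 ± 0.48 CPM in Control ASO. The order of the means turned in the same way for Pik3cg, Plcb2, Plcg2 and Pip4k2a, so these 6 ratios have no settled direction. Pik3r6 was lower in Mboat7 ASO both with Lcp1 (0.422 ± 0.121 CPM in Mboat7 ASO and 0.472 ± 0.156 CPM in Control ASO) and without it (0.711 ± 0.322 CPM in Mboat7 ASO and 1.25 ± 0.52 CPM in Control ASO). Pik3r5 was higher in Mboat7 ASO both with Lcp1 (0.845 to 2.47 CPM in Mboat7 ASO and 0.541 to 0.869 CPM in Control ASO) and without it (1.71 to 3.64 CPM in Mboat7 ASO and 1.31 to 2.10 CPM in Control ASO). Its replicates 6, 7, 8 and 10 lay above every control either way, and replicate 9 did not. The groups overlapped for each of these 8 genes with either sum. These ratios were not tested, and the part of leukocyte abundance in the changes of these members was not tested.

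Outside that set and Pip4k2a, which was placed beside it after its values were seen, 13 of 43 members tested rose (30.2%, against 21.2% of all genes tested) and 2 fell (4.65%, against 17.3%), with a median log2 fold change of 0.11. The 13 rises ranged between 0.18 and 0.93 with a median of 0.35, none of them over 2-fold. The 28 uncalled members ranged between -0.15 and 0.74 with a median of 0.06. Median coefficients of variation of the 13 were 9.18% in Mboat7 ASO and 10.2% in Control ASO livers. Replicates 9 and 10 both lay below replicates 6 to 8 for 2 of the 13 (15.4%, against 15.5% of all genes tested), and replicate 6 was highest for 3 (23.1%, against 28.3%). Replicate 9 was lowest among Mboat7 ASO livers for 7 (53.9%, against 24.3%), and Control ASO replicate 2 highest among controls for 5 (38.5%, against 29.6%). Of these features of library order, only the low rank of replicate 9 stood well apart from the share of all genes. The 13 had a median of 8970 exonic bases and a median span of 103 kb, against 4437 bases and 24.1 kb over all genes tested. Across 12550 genes, which are not independent replicates, fold change and exon length had a Spearman correlation of 0.32. With that trend removed, 17 of all 51 members tested rose and 3 fell, against 17.1% and 12.9% of all genes. The 17 included the leukocyte-type set and Pip4k2a. Among the other members the calls ended for Pi4ka (FDR 0.0557), Ocrl (0.0882), Plcg1 (0.0615), Pip5k1c (0.0899), Plcb1 (0.3) and Mtm1 (0.587, log2 fold change -0.04). Pikfyve was called lower (-0.24, FDR 0.0317), and Fig4 (0.21, FDR 0.0192) and Sacm1l (0.15, FDR 0.0489) higher. Pik3c2a, Synj1, Synj2, Mtmr6, Mtmr1, Plce1 and Plcb4 kept theirs. With Fig4 and Sacm1l, these were the only higher calls then left among the 43 members. The share of 30.2% is thus that with the length trend left in.

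Other genes of the pathway, listed by function, gave 39 higher and 6 lower calls among 92 tested of 104 listed (42.4% higher and 6.52% lower, against 21.2% and 17.3% of all genes tested), with a median log2 fold change of 0.19. The higher calls numbered 26 with the gene-length trend removed, where 17.1% of all genes rose. They numbered 54 under scaling by library size alone, where 37.0% of all genes rose. The counts per list below are read against the 21.2% and 17.3% of all genes. Among effectors of PI(3,4,5)P3, 12 of 21 rose and 2 fell. The ARF exchange factor Cyth3 rose by 1.15 ± 0.17, the PH-domain adaptor Plekha2 by 1.25 ± 0.24 and Pdpk1, the kinase that activates AKT, by 0.31 ± 0.06 (log2 fold change and SE, edgeR FDR 0.00202, 0.004 and 0.00391). The kinase Sgk2 fell by 0.54 ± 0.10 (edgeR FDR 0.00348). Of 18 inositol trisphosphate receptors, protein kinases C and diacylglycerol kinases, which act below phospholipase C, 12 rose and 0 fell. Of the 12, Dgkg, Dgkh and Prkcq passed the filter through Mboat7 ASO livers alone, the group where they were higher. The 12 also included Prkcb, a protein kinase C of blood cells (2.12 ± 0.38, edgeR FDR 0.00314), Prkca (0.59 ± 0.11, FDR 0.00397), Prkch (0.97 ± 0.21, FDR 0.00594) and the receptor Itpr3 (1.05 ± 0.23, FDR 0.00665).

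Partners of the kinase complexes rose in 6 of 11 cases. These included Vac14, the scaffold of Pikfyve and Fig4 (log2 fold change 0.44 ± 0.06, edgeR FDR 0.00145), Pik3ap1, a class I adaptor of B cells and macrophages (0.83 ± 0.15, FDR 0.0035), Fam126a, a subunit of the Pi4ka complex (0.63 ± 0.14, FDR 0.00685), and Uvrag, a class III subunit (0.26 ± 0.06, FDR 0.00935). Of 11 other phosphatases 3 rose, among them the catalytically inactive myotubularin Mtmr9 (0.48 ± 0.11, FDR 0.00641), Tmem55a (0.23, FDR 0.0215) and Sbf2 (0.25, FDR 0.0316). Inositol phosphate enzymes were mixed, with 4 of 16 higher and 3 lower. Itpkb, which phosphorylates inositol trisphosphate, rose by 1.06 ± 0.18 (edgeR FDR 0.00273) and Impad1 by 0.50 ± 0.09 (FDR 0.00352), while Itpk1 fell by 0.32 ± 0.06 (FDR 0.00397) and Impa1, an inositol monophosphatase, by 0.24 ± 0.06 (FDR 0.0127), all on the log2 scale. Other phospholipases C gave 1 lower call of 4 tested, Plcxd2 (-0.64 ± 0.17, FDR 0.0133). Receptors, adaptors and G proteins above the pathway gave 2 higher calls of 11, Gnaq (0.38 ± 0.07, FDR 0.00345), whose product activates the beta phospholipases C, and the adaptor Gab2 (0.94 ± 0.24, FDR 0.0114).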

How the data were processed

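Liver RNA was sequenced in 10 libraries with a directional mRNA kit and 50-base single-end reads. The methods and processing notes name Trim Galore 0.3.3 for trimming, FastQC 0.11.3 for quality control and STAR for alignment to mm10 and gene counting by the authors, with UCSC annotation of 2016 and introns of up to 100000 bases. Which strand was counted is not given, so genes that share exonic bases are uncertain. Raw counts were deposited, 1 row per gene symbol. A further 10 columns matched no label and were not used.

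Groups follow the sample titles. No pair of libraries of 1 group agreed within sampling noise (chi-square over degrees of freedom 21.1 to 84.2), so none was treated as 1 library deposited under 2 names. The titles do not say that each library is a separate mouse, so p-values cover the spread among these libraries, which may be technical.

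Genes at 1 CPM or more in at least 1 library (12609 of 24411) were scaled by upper quartile and tested for Mboat7 ASO against Control ASO with edgeR's quasi-likelihood test, Benjamini-Hochberg FDR 0.05. The biological coefficient of variation was 0.166. Exon lengths and coordinates came from GENCODE on GRCm38, and levels were compared between genes as CPM per kilobase of summed exon. On data simulated from these libraries (12400 genes), the test called 64.6% of 65 genes changed 1.5-fold, 87.9% of 66 at 2-fold and 100% of 65 at 4-fold. It also called 5 unchanged genes. Changes went up or down at random and counts were drawn from the fitted dispersions, whereas 38.5% of genes were called in these data. The rates therefore describe the simulation and may not hold for these data. Counting intervals are 95% and use library totals in place of the upper quartile. They cover counting error alone, since PCR copies were not told apart by molecular identifiers.

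The members, the lists of pathway and marker genes and the leukocyte-type set were chosen with earlier results of these data known. By the naming rule, values per library are given for the 16 members of lowest FDR, for lower members and for the most abundant member of each role per kilobase, with up to 4 genes of lowest p from each pathway list. Values per library of other members (Inppl1 and Mtm1) were added after they were seen. The 20 alternatives changed the scaling (TMM, RLE, library size), filter, test (edgeR likelihood ratio, DESeq2, limma-voom), gene-length trend or libraries, and a threshold of FDR 0.01 and a pan-leukocyte sum without Lcp1 were added after seeing the data. Software was R 4.3.3, edgeR 4.0.16, limma 3.58.1, DESeq2 1.42.0 and scipy 1.17.1.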

Additional observations from a re-analysis of the deposited data

Results flagged for a closer look

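In 3 of the 102 groups of 5 livers examined (51 members in each group), 1 liver stood apart from the other 4 by more than 0.71 of the group's range, where chance gives about 5.1. Pik3r5 was 1.71 CPM in Control ASO replicate 2, against 0.722 to 0.841 CPM in the other controls, and this liver also had the highest pan-leukocyte markers among controls. Pi4k2a was 106.8 CPM in Control ASO replicate 1, against 77.6 to 84.3 CPM in the other controls. Without that liver the log2 fold change of Pi4k2a was -0.18 (edgeR FDR 0.0698). Plcg1 was 41.8 CPM in Control ASO replicate 5, against 32.6 to 34.8 CPM in the other controls.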

How the results depend on the processing

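Of the 23 called members, 15 were called under each of the 20 alternatives, all of them higher, and 8 lost the call under at least 1. Scaling by library size alone gave 35 higher and 0 lower members (21 and 2 with upper quartile), 4670 higher and 772 lower genes overall (2667 and 2184) and 2 lower pathway genes (6), with 85.8% of calls higher instead of 55.0%. At an FDR of 0.01, chosen after seeing the data, 14 members were higher and 0 lower. The share of all genes at that threshold is not given here, so these 2 counts are not read further. Leaving out each liver in turn gave 19 to 22 higher and 1 to 2 lower members. Of all genes, 15.8% to 24.5% were then higher and 12.6% to 18.4% lower. Leaving out Control ASO replicate 2 with Mboat7 ASO replicate 9 gave 1 lower, against 17.5% of all genes. Removing the length trend turned Mtm1 to -0.04 and Pikfyve to -0.24. With the longest transcript as length, the Pik3ca share was 43.9% in Mboat7 ASO livers in place of 47.2%. Of the 28 uncalled members, 15 were called under at least 1 alternative, Pikfyve in the opposite direction. Leaving Lcp1 out of the pan-leukocyte sum turned the ratio of the Mboat7 ASO mean to the Control ASO mean, per summed marker, to 0.965 for Pik3cd (1.47 with it), 0.884 for Pik3cg (1.36), 0.814 for Inpp5d (1.26), 0.855 for Plcb2 (1.35), 0.973 for Plcg2 (1.53) and 0.843 for Pip4k2a (1.31). Causes of these shifts were not tested. No paired analysis was possible because the groups share no replicate numbers. Depth limits Pip5k1b, Plcd1 and Plcd3, and members near 1 CPM, such as Pik3cg, Pik3r6, Plcb4 and Inpp4b, rest on few counts per liver.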
